A study of Sus scrofa with 8 samples.

Results

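The genes described here are 10 immediate-early genes: FOS, FOSB, JUN, JUNB, EGR1, EGR2, EGR3, ATF3, IER2 and NR4A1. They were matched by name in the authors' deposited comparison and then by gene identifier in the count table, which found 8 of the 10 among 31908 gene models. JUN and IER2 were not found that way and were taken from the count table through a reference table of gene names. Each library holds bulk RNA from the free wall of the right ventricle of 1 Yorkshire Cross pig, for 8 pigs in all. In the banded group (n = 4), castrated male piglets were operated on at 4.5 ± 0.6 weeks of age and 6.4 ± 1.3 kg. A tape around the main pulmonary artery was tightened until right ventricular systolic pressure reached about 30 to 40 mmHg, which loads the right ventricle with pressure. The controls (n = 4) were pigs of similar age and weight that were housed for 8 weeks, with their treatment given as none. No sham operation is named for them. Not given in the sources used here are their sex, the interval between banding and collection and the hour of each collection. The effect of the operation itself cannot be told apart from that of the band.

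Immediate-early genes are the first genes that a stimulated cell transcribes. They need no new protein for it, because the factors that switch them on, such as serum response factor and CREB, are already in place and are activated by kinases of the MAP kinase pathways. Most of their products are transcription factors that set the next wave of genes, and their messages decay quickly. In heart muscle they are known to respond within minutes to stretch, pressure load, adrenergic and angiotensin signals and cell stress.

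Depth was 31033679 to 34183338 counts per library. Markers of ventricular cardiomyocytes (8 of 10 matched) summed to 29654 to 50755 CPM. TNNI3 was the exception, at 12.6 to 20.6 CPM in controls and 2.44 to 11.3 CPM in banded pigs, and the other 7 were at or above 304 CPM in each library. Of the skeletal muscle markers (5 of 9 matched), CKM, which heart muscle also expresses, was at 4535 to 8950 CPM, and TNNT3, TNNI2, PVALB and ATP2A1 were at or below 1.34 CPM in each library, PVALB at 0 in all of them. CPM, the unit of level used here, scales counts to the size of the library, with TMM factors between libraries. Banded 3 stood apart from the other libraries. It had the lowest weight in a sample quality model (0.408, against 0.637 to 1.73 in the others) and the smallest share of counts from the mitochondrial genome (30.5%). Control 4 had the largest such share (43.9%, against 35.3% to 39.7% in the other 6). Since the measurements are of bulk tissue, fewer cells of a type and less RNA per cell cannot be told apart.

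No immediate-early gene passed the test between banded and control pigs. Of 9 tested members 0 had an adjusted p under 0.05 in edgeR's quasi-likelihood test, whereas 6.97% of all 13697 tested genes did. At an unadjusted p under 0.05 there was 1 member, NR4A1, and 23.8% of all genes. The banded and control values overlapped for all 9 members, while 15.9% of all tested genes had groups that did not overlap. The sign of the log2 fold change was positive for 4 members (FOS, JUNB, EGR1 and EGR2) and negative for 5 (NR4A1, FOSB, ATF3, EGR3 and JUN). Their median log2 fold change was -0.41, against 0.02 for all tested genes. DESeq2 called 1 member, NR4A1, where it called 10.3% of all genes, and gave no adjusted p for FOSB and EGR2. The linear model limma-voom with quality weights called 0, where it called 9.79%. Without banded 3, edgeR called 0 members and 6.72% of all genes. With 1 surrogate variable, a covariate estimated from the counts of all genes, edgeR called 1 member, EGR3, and 7.6% of all genes. The other 13 settings called 2.86% to 8.07% of all genes and no member. The intervals of the fold changes were wide, so these data do not show that the levels were alike.

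**Figure D1:**
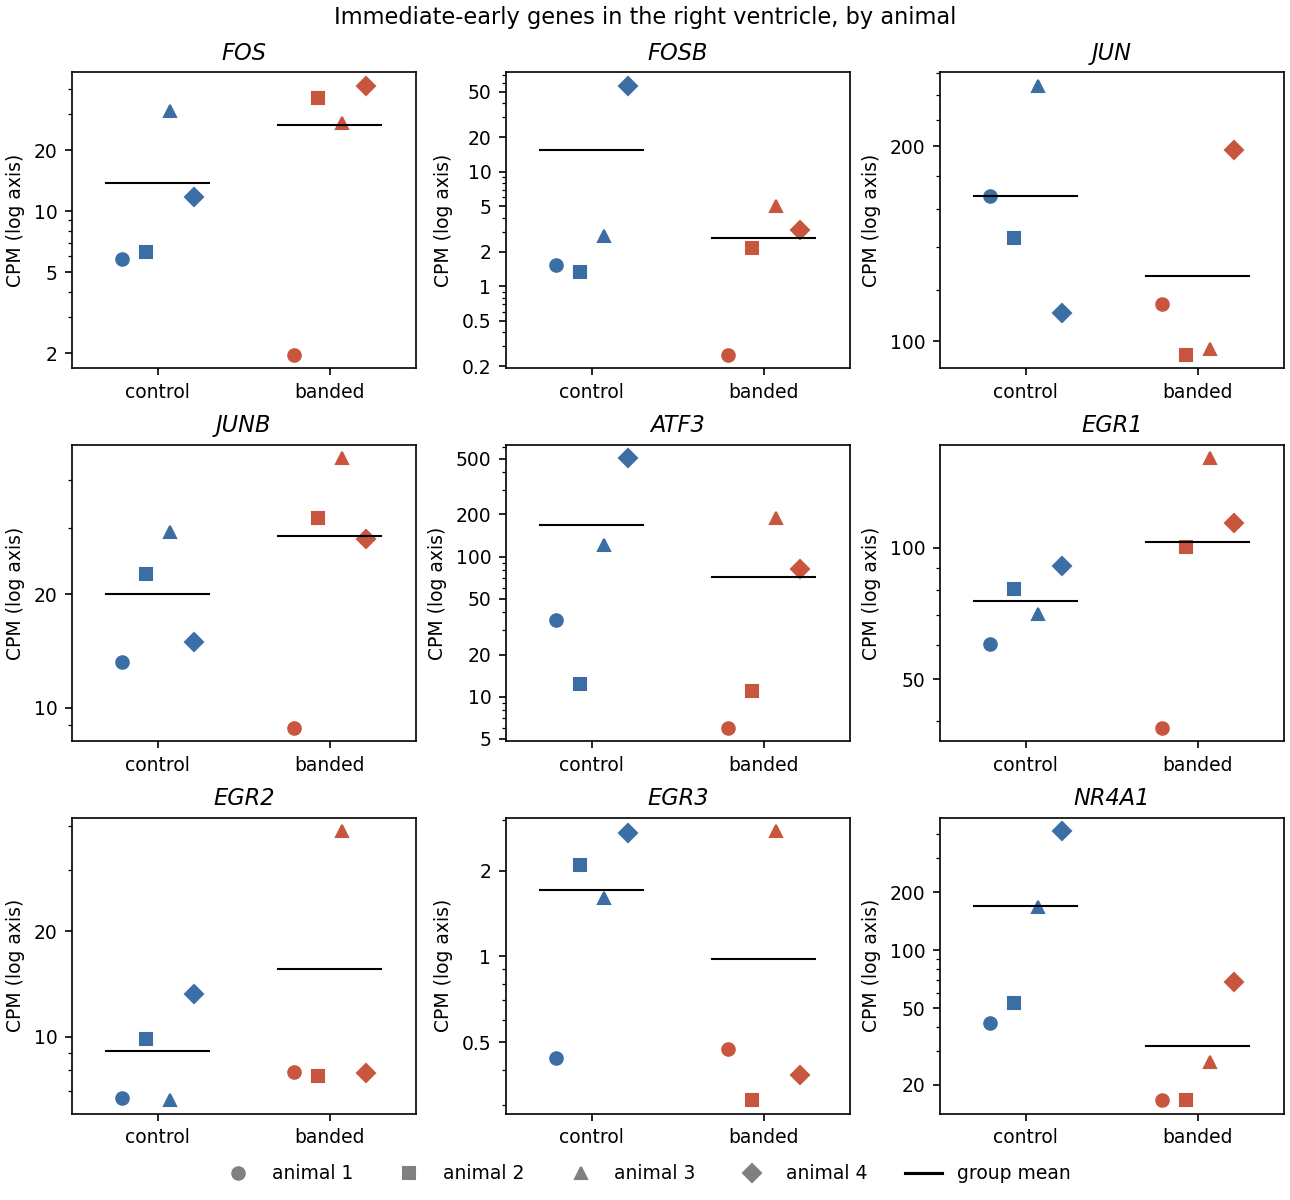
TMM-normalised CPM (log axis) of the 9 detected immediate-early genes in 4 control and 4 banded pigs, with 1 symbol shape for each animal of a group and a black line at the group mean. Banded 1 (circle) is the lowest library for 5 of the 9 genes, control 4 (diamond) is the highest for FOSB, ATF3 and NR4A1, and banded 3 (triangle) is the highest for JUNB, EGR1, EGR2 and EGR3.

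FOS and FOSB encode the Fos subunits of the transcription factor AP-1, which bind DNA only as dimers, mostly with Jun proteins. The FOS model lies on chromosome 7 at 98449349 to 98455554 (Sscrofa11.1, as all positions here). It also spans part of a second RefSeq gene, a long non-coding RNA. Reads of that RNA could be counted in the FOS model if both lie on the same strand, which was not checked. FOS was at 5.78, 6.32, 31.0 and 11.7 CPM in controls 1 to 4. It was at 1.96, 35.9, 27.2 and 41.5 CPM in banded 1 to 4. Banded 2, 3 and 4 were thus near or above the highest control, and the fourth, banded 1, was below every control. The group means were 13.7 ± 11.8 and 26.6 ± 17.5 CPM (SD, n = 4 each), with a log2 fold change of 0.96 (95% interval -1.22 to 3.13, edgeR adjusted p = 0.583). Without control 3 the log2 fold change of FOS was 1.75, and with the quality weights of limma-voom it was 0.03.

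FOSB, on chromosome 6 at 51837719 to 51844531, was low in all libraries but control 4. It was at 1.53, 1.33, 2.78 and 56.6 CPM in controls 1 to 4 and at 0.253, 2.16, 5.01 and 3.13 CPM in banded 1 to 4. Control 4 alone set the control mean of 15.6 ± 27.4 CPM, against 2.64 ± 1.98 CPM in banded pigs (SD, n = 4 each). The log2 fold change was -2.56 (95% interval -6.16 to 1.05, adjusted p = 0.364), and without control 4 it turned to 0.48 (adjusted p = 0.745). Per unit of length (TPM, a level scaled by both gene length and library size), FOSB was 6.25 times the level of FOS in control 4 and 0.0778 to 0.342 times its level in the other 7 libraries.

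JUN and JUNB encode Jun subunits of AP-1. JUN, on chromosome 6 at 153685682 to 153687656, varied less between animals than the Fos genes. It was at 168, 145, 248 and 110 CPM in controls 1 to 4 and at 114, 95.2, 97.2 and 198 CPM in banded 1 to 4. Banded 2 and 3 were just under the lowest control and banded 4 was above all controls but control 3. The log2 fold change was -0.41 ± 0.29 (SE, 95% interval -1.06 to 0.24, adjusted p = 0.431), and it was -0.16 without control 3 and -0.72 without banded 4 (adjusted p = 0.115 in edgeR and 0.037 in DESeq2). A model on the opposite strand that overlaps JUN held 0 to 11 counts per library.

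JUNB, on chromosome 2 at 66214594 to 66215637, was at 13.3, 22.6, 29.2 and 14.9 CPM in controls 1 to 4. It was at 8.87, 31.7, 45.8 and 27.9 CPM in banded 1 to 4. As with FOS, banded 1 was below every control, and banded 2 and 3 were above every control. The log2 fold change was 0.51 ± 0.47 (SE, adjusted p = 0.554), was 0.19 without banded 3, and was -0.05 in limma-voom with quality weights. Without banded 1 it was 0.81 in edgeR (adjusted p = 0.128) and 0.82 in DESeq2 (0.0496). The exons of HOOK2, which encodes a linker of organelles to microtubules, overlap JUNB on the opposite strand. HOOK2 was chosen for this overlap after its values were seen. It rose from 1.85 to 3.45 CPM in controls to 10.3 to 42.0 CPM in banded pigs (log2 fold change 3.30 ± 0.44, SE, adjusted p = 0.00355). The authors' counting used strand, and the part of HOOK2 in the JUNB values was not tested.

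ATF3 encodes a stress-induced repressor and activator of the ATF/CREB family that can pair with Jun proteins. Its model lies on chromosome 9 at 130770428 to 130787462. ATF3 was at 35.5, 12.2, 120 and 501 CPM in controls 1 to 4 and at 6.03, 11.0, 187 and 80.9 CPM in banded 1 to 4. The highest control was 41.0 times the lowest, and the highest banded library was 31.1 times the lowest. The group means of 167 ± 228 and 71.3 ± 84.5 CPM (SD, n = 4 each) differed by less than the SD of the controls and by more than that of the banded pigs (log2 fold change -1.23, 95% interval -4.72 to 2.26, adjusted p = 0.669). Without control 4 the log2 fold change was 0.35, and without banded 3 it was -2.36.

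**Figure D2:**
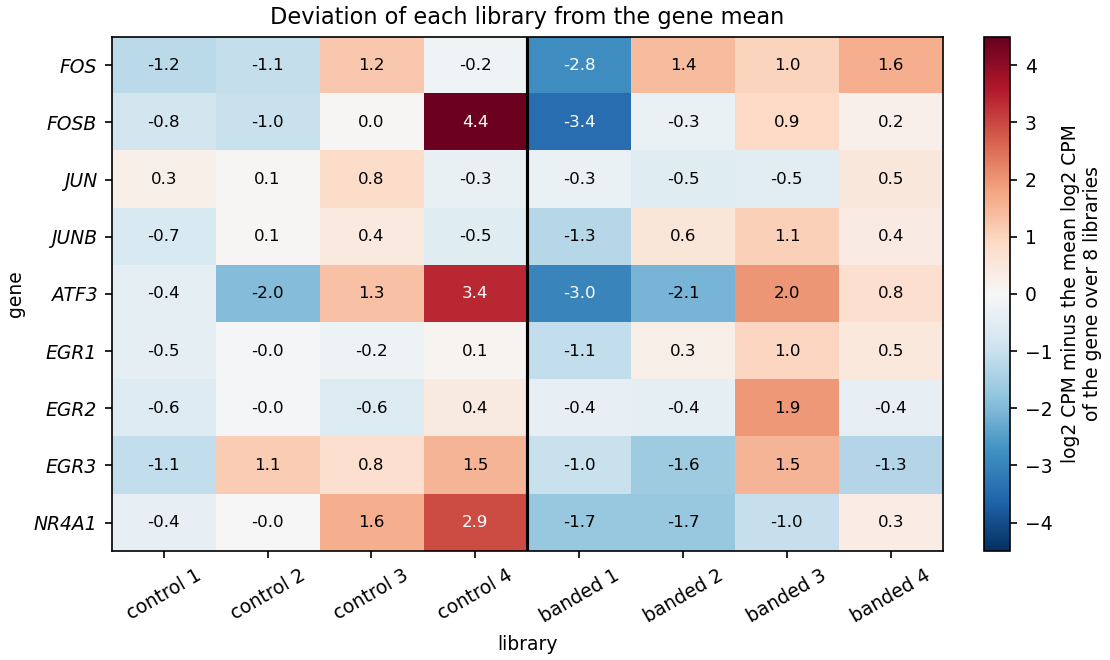
Heat map of log2 CPM of each immediate-early gene (rows) in each library (columns), minus the gene's mean log2 CPM over the 8 libraries, with the value printed in each cell. FOSB, ATF3 and NR4A1 have their highest cells in control 4, and FOS, FOSB and ATF3 have their lowest cells in banded 1.

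The EGR genes encode zinc-finger transcription factors that bind GC-rich sites in promoters. EGR1, on chromosome 2 at 140441421 to 140445296, was the steadiest member among controls. It was at 60.3, 80.4, 70.4 and 90.8 CPM in controls 1 to 4 and at 38.7, 100.5, 160 and 114 CPM in banded 1 to 4. Banded 2, 3 and 4 were above every control, and banded 1 was below every control. The log2 fold change was 0.45 ± 0.36 (SE, 95% interval -0.36 to 1.26, adjusted p = 0.488). Without banded 1 it was 0.73 (edgeR adjusted p = 0.0564). DESeq2 called EGR1 higher in that set of 7 libraries (adjusted p = 0.0133). These DESeq2 fits on 7 libraries were chosen after seeing the data. Leaving banded 3 out of the edgeR fit gave 0.16 (adjusted p = 0.836).

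EGR2 and EGR3 were each set apart in banded pigs by banded 3. EGR2, on chromosome 14 at 66284577 to 66291306, was at 6.69, 9.83, 6.57 and 13.3 CPM in controls 1 to 4. It was at 38.8 CPM in banded 3 and at 7.71 to 7.90 CPM in the other 3 banded libraries. Apart from banded 3, the banded libraries were therefore within the range of the controls. The log2 fold change was 0.78 ± 0.61 (SE, adjusted p = 0.488) and -0.21 without banded 3 (adjusted p = 0.66).

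EGR3, on chromosome 14 at 6945936 to 6948684, was the least abundant of the EGR genes. It was at 0.440, 2.09, 1.602 and 2.71 CPM in controls 1 to 4, from 15 to 82 counts. It was at 0.474, 0.313, 2.75 and 0.382 CPM in banded 1 to 4, from 11 to 89 counts. Banded 1, 2 and 4 were thus at or near the level of control 1, and banded 3 was at that of control 4. The log2 fold change was -0.80 ± 0.75 (SE, 95% interval -2.46 to 0.87, adjusted p = 0.567). Without banded 3 it was -2.12 (adjusted p = 0.062), and with 1 surrogate variable, which was 0.907 in banded 3 and -0.225 to 0.0696 in the other libraries, EGR3 was called lower (log2 fold change -2.01, adjusted p = 0.0455).

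NR4A1 encodes Nur77, an orphan nuclear receptor that acts as a transcription factor. Its model lies on chromosome 5 at 17385390 to 17408514, where it also spans part of another RefSeq gene, and RefSeq lists the pig NR4A1 itself as a pseudogene. NR4A1 was at 42.0, 53.2, 167 and 416 CPM in controls 1 to 4 and at 16.6, 16.6, 26.4 and 68.1 CPM in banded 1 to 4. Banded 1, 2 and 3 were below every control, and banded 4 was above controls 1 and 2. The group means were 170 ± 174 and 31.9 ± 24.6 CPM (SD, n = 4 each). NR4A1 had the smallest p of the members, with a log2 fold change of -2.41 (95% interval -4.54 to -0.28, unadjusted p = 0.0318), and did not pass after adjustment over all genes (edgeR adjusted p = 0.164). DESeq2 gave it an adjusted p of 0.0479 with a log2 fold change of -2.41, and the call held in DESeq2 without control 1 (0.0354), control 2 (0.0451) or banded 4 (0.00916) and ended without control 4 (log2 fold change -1.45, 0.24), banded 1 (-2.19, 0.145), banded 2 (-2.19, 0.14) or banded 3 (-2.33, 0.125). Without control 3 DESeq2 gave NR4A1 no p (log2 fold change -2.42). In edgeR the sign stayed negative in each alternative run, at -1.46 without control 4 and -3.09 without banded 4.

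IER2, which encodes a nuclear protein of the immediate-early class, was listed at 0 counts in all 8 libraries. Its model lies on chromosome 2 at 65909646 to 65911423. At these depths the limit set by a count of 0 is 0.0878 to 0.0967 CPM, depending on the library (3 counts of the total, counting error only). It could not be tested, and whether reads of IER2 failed to be placed on this model was not tested.

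**Figure D3:**
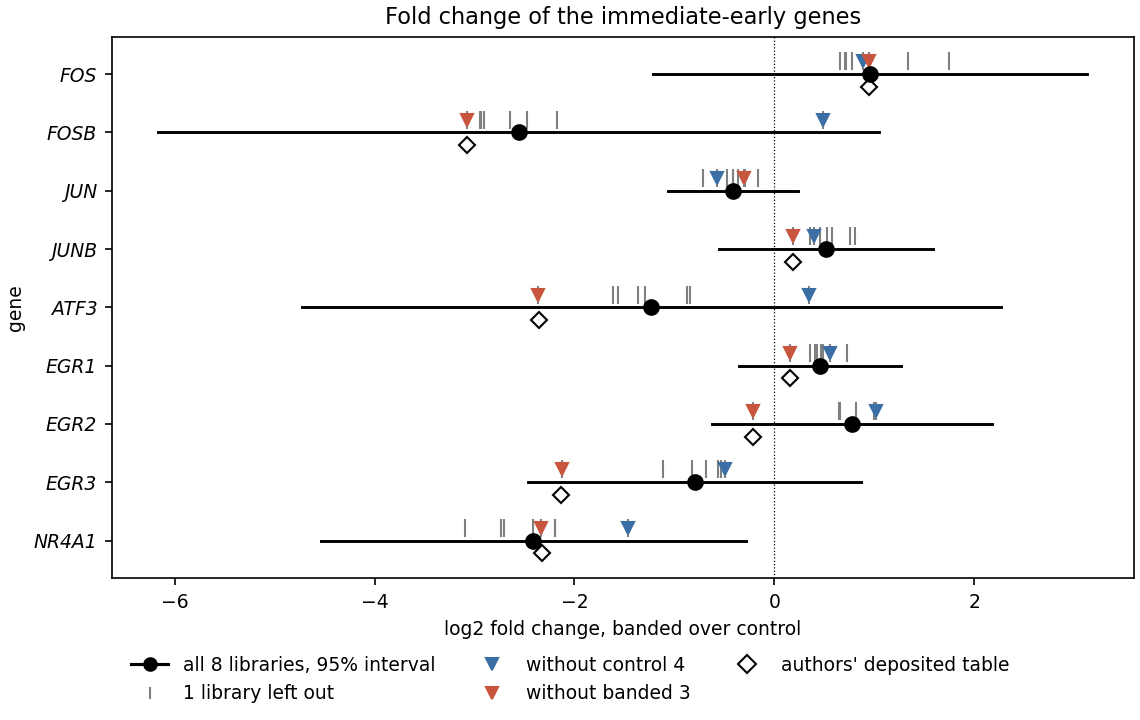
Log2 fold change of banded over control for 9 immediate-early genes: black circles with 95% intervals from all 8 libraries (edgeR), grey ticks for fits with 1 library left out, triangles for the fits without control 4 or banded 3, and open diamonds for the authors' deposited values with their sign turned. The diamonds lie on the triangles of the fit without banded 3, and the points of FOSB and ATF3 cross 0 without control 4.

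The authors' deposited table gives another result for EGR3. With its sign turned to banded over control, the authors' deposited table lists EGR3 at a log2 fold change of -2.13 and an adjusted p of 0.00726, EGR2 at -0.21, EGR1 at 0.16, JUNB at 0.19, FOS at 0.94, ATF3 at -2.36, NR4A1 at -2.33 and FOSB at -3.08 without a p. EGR3 is the only one of these 8 genes with an adjusted p under 0.05 there, where 10.6% of genes with an adjusted p had one. These values were set beside DESeq2 fits of the deposited counts, run on all 8 libraries and without each library in turn. Over 16302 genes the authors' log2 fold changes differed from the fit without banded 3 by at most 0.00484. From the fit on all 8 libraries they differed by a median of 0.0956 and by up to 5.82, and from the fits without any 1 of the other 7 libraries by a median of 0.114 to 0.149. In the DESeq2 fit without banded 3, which called 10.1% of genes, EGR3 had a log2 fold change of -2.13 and an adjusted p of 0.00711, and with all 8 libraries it had -0.80 and 0.545. The sources used here do not state which libraries entered the deposited comparison.

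Levels were compared between genes per unit of length, as TPM. JUN had the highest median over the 8 libraries (106.1 TPM, range 72.2 to 216), followed by EGR1 (40.7 TPM, 17.3 to 80.3), JUNB (36.3 TPM, 11.8 to 68.1) and NR4A1 (28.8 TPM, 8.58 to 193). ATF3 had a median of 11.6 TPM (1.18 to 88.6), FOS of 5.78 TPM (0.551 to 12.3) and EGR2 of 4.09 TPM (3.52 to 20.6). EGR3 (1.10 TPM, 0.339 to 2.81) and FOSB (1.03 TPM, 0.0920 to 18.6) were lowest. In this order the ranges of neighbours overlapped except those of EGR2 and EGR3. The order also differed between animals: NR4A1 was above JUN in control 4 (193 against 72.2 TPM), and EGR1 and JUN were level in banded 3 (80.3 and 79.2 TPM).

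The members varied more between animals of the same group than most genes did. The SD of log2 CPM over the 4 controls was 2.51 for FOSB, 2.30 for ATF3 and 1.53 for NR4A1, and the median of all 13697 tested genes was 0.23. In controls, 5 of the 9 members (FOSB, ATF3, NR4A1, FOS and EGR3) were above the 95th percentile of all tested genes, and EGR1 was at the 54.9th. In banded pigs ATF3 (SD 2.33), FOS (2.06), FOSB (1.77), EGR3 (1.35) and EGR2 (1.15) were above the 95th percentile, and JUN, at the 71.7th, was the lowest of the 9. The difference in spread between the groups was not tested. A SD over 4 animals is itself imprecise, and it rests on 1 library for FOSB in controls (control 4) and for EGR2 and EGR3 in banded pigs (banded 3).

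**Figure D4:**
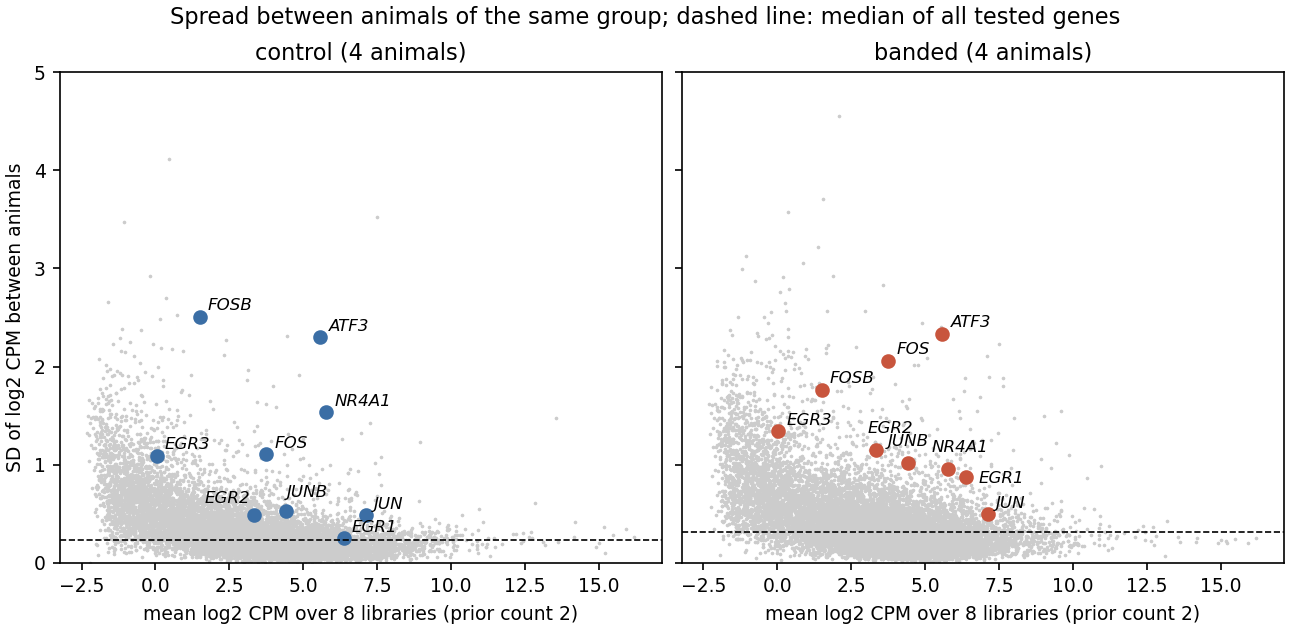
SD of log2 CPM between the 4 animals of a group (vertical axis) against mean log2 CPM over the 8 libraries (horizontal axis) for all tested genes (grey) and the immediate-early genes (coloured), with controls at left and banded pigs at right. FOSB and ATF3 lie far above the dashed median line in both groups, whereas JUN lies nearer to it.

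The members did not vary as 1 block. Over 36 pairs of members and 8 libraries, the largest Pearson correlations of log2 CPM were between FOSB and ATF3 (r = 0.87, Spearman rho = 0.90), FOS and JUNB (0.87 and 0.76), and JUNB and EGR1 (0.86 and 0.79). These are given as a description. They share libraries and depth, and after leaving out the 2 libraries farthest from the median of the first gene they were 0.82, 0.60 and 0.60. JUN had the lowest correlation of all pairs, with EGR2 (r = -0.56, rho = -0.57). Banded 1 was the lowest of the 8 libraries for FOS, FOSB, JUNB, EGR1 and ATF3, and banded 2 for JUN, EGR3 and NR4A1.

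Among 11312 other genes with a symbol and a mean of at least 1 CPM, those most like the mean profile of the 9 members over the 8 libraries were SRSF9 (r = 0.97), TSC22D2 (0.95), AMMECR1L (0.94), CSTF2, SOX8, PIM1 and NAA38 (0.93 each) and CSRNP1 (0.92). PIM1 encodes a kinase and CSRNP1 a nuclear protein of the immediate-early class. The genes most like single members were DNAJC3 for FOS (r = 0.95), NELFE for FOSB (0.94), NLGN3 for JUN (0.97), BACH2 for JUNB (0.96), PHLDA2 for EGR1 (0.97), DDX21 for EGR2 (0.99), USP37 for EGR3 (0.96), CSTF2 for ATF3 (0.96) and EYA3 for NR4A1 (0.99). After leaving out the 2 libraries farthest from the member's median, r was 0.66 for FOSB and 0.73 for EGR2. For the other members it was 0.88 to 0.97. With 8 libraries and so many genes compared, correlations of this size describe these libraries only.

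Among 30 tested genes of a list of other immediate-early genes, 0 passed the test in edgeR, where 6.97% of all tested genes did, with a median log2 fold change of 0.08. An unadjusted p under 0.05 was found for 8 of them, against 23.8% of all genes. DESeq2 called 3 higher and 3 lower, and 10.3% of all genes. NR4A3, a receptor of the same family as NR4A1, had the most negative value, and its groups did not overlap. It was at 20.1, 31.7, 160 and 670 CPM in controls 1 to 4 and at 5.18, 1.02, 8.87 and 16.1 CPM in banded 1 to 4. Its log2 fold change was -4.83 ± 1.46 (SE, adjusted p = 0.106), -3.19 without control 4 (adjusted p = 0.161), and it was called by DESeq2 (adjusted p = 0.00104) and by edgeR without robust estimation (0.0334). NR4A2, the remaining receptor of the family, named here after its values were seen, was at 30.9 to 52.8 CPM in controls and 18.3 to 31.0 CPM in banded pigs (log2 fold change -0.78 ± 0.22, SE, adjusted p = 0.059, with DESeq2 0.0152).

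Of 18 tested genes in the list of other AP-1 and ATF/CREB factors, 1 was called lower and 0 higher (3.5% and 3.47% of all tested genes), with a median log2 fold change of 0.08. ATF7, a CREB-family factor related to ATF2, fell from 69.8 ± 7.85 to 45.6 ± 9.24 CPM (SD, n = 4 each, log2 fold change -0.61 ± 0.16, SE, adjusted p = 0.0371). Its call ended without control 1 (0.116), 2 (0.113) or 3 (0.0874) and without banded 2 (0.073), 3 (0.0619) or 4 (0.0705), given as adjusted p. FOSL1, which encodes the Fos protein FRA1, was at 16.2 CPM in banded 3 and at 0.0293 to 1.78 CPM in the other 7 libraries (adjusted p = 0.398). ATF4, the effector of the integrated stress response and the most abundant of the list per length, was at 166 to 265 CPM in controls and 190 to 404 CPM in banded pigs (adjusted p = 0.33). JDP2, a repressor of AP-1, was at 18.0 ± 7.94 and 11.6 ± 1.64 CPM (SD, n = 4 each, adjusted p = 0.176).

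**Figure D5:**
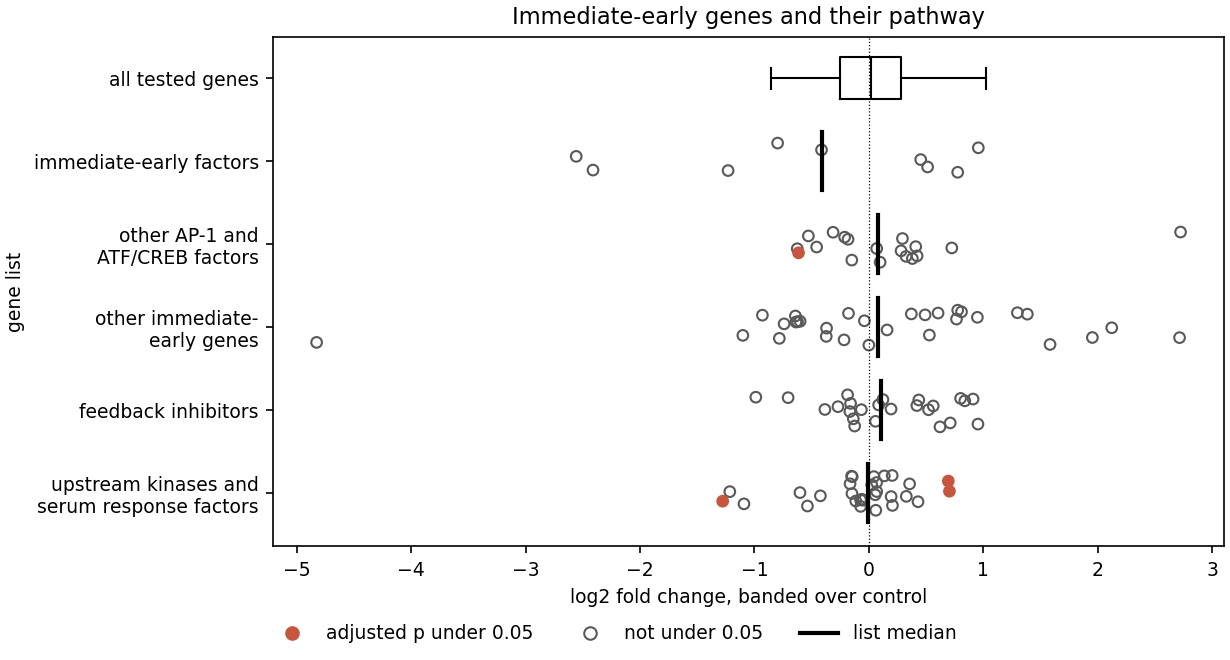
Log2 fold change of banded over control for each tested gene of 5 lists (points, filled where the adjusted p is under 0.05, black bar at the list median) below a box plot of all 13697 tested genes (box at the quartiles, whiskers at the 5th and 95th percentiles). FOSB, NR4A1 and ATF3 lie to the left of the box plot's whiskers, and the filled points belong to ATF7, RPS6KA5, MAP2K1 and MAP2K3.

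Feedback inhibitors, which end the immediate-early response by removing phosphate from MAP kinases, destroying messages or blocking EGR proteins, had 0 of 24 tested genes called in edgeR and a median log2 fold change of 0.10. At an unadjusted p under 0.05 there were 5, and DESeq2 called 1. The shares over all genes were 6.97% in edgeR, 23.8% unadjusted and 10.3% in DESeq2. DUSP1, a phosphatase of MAP kinases and itself induced with FOS, was the most abundant per length. It was at 69.0, 62.2, 252 and 111 CPM in controls 1 to 4 and at 39.5, 64.8, 78.2 and 196 CPM in banded 1 to 4 (adjusted p = 0.766). As for JUN, its highest control was control 3 and its highest banded library was banded 4. NAB2, a corepressor of EGR proteins, reached 26.5 CPM in control 4, with the other controls at 7.48 to 11.5 CPM, against 4.11 to 10.9 CPM in banded pigs (log2 fold change -0.99, adjusted p = 0.198). DUSP2 had the largest positive value (log2 fold change 0.95, adjusted p = 0.258).

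Upstream of the members, 3 of 30 tested kinases and serum response factors passed the test, 2 higher and 1 lower (3.47% and 3.5% of all tested genes), with a median log2 fold change of -0.01. RPS6KA5, which encodes MSK1, a nuclear kinase that acts on CREB and on histone H3 at immediate-early genes, fell in banded pigs. It was at 21.5, 17.6, 22.7 and 17.4 CPM in controls 1 to 4 and at 9.38, 8.73, 6.06 and 8.48 CPM in banded 1 to 4 (log2 fold change -1.28 ± 0.17, SE, adjusted p = 0.00188). The call held in each alternative run, with an adjusted p of at most 0.0102 when 1 library was left out. MAP2K1, the kinase MEK1 that activates ERK, rose from 24.5 ± 1.65 to 39.7 ± 6.61 CPM (SD, n = 4 each, adjusted p = 0.0136), a call that ended without control 1 (0.0547) or control 2 (0.0502) and with library size alone (0.0526). MAP2K3, which activates p38, rose from 20.6 ± 3.95 to 33.5 ± 5.64 CPM (SD, n = 4 each, adjusted p = 0.0287), a call that ended without control 1 (0.0934), 2 (0.0866) or 3 (0.0965). MAP2K6, of the same kinase family, had the most negative uncalled value. Its level was 3.36 to 6.57 CPM in controls and 0.973 to 3.09 CPM in banded pigs. The log2 fold change of MAP2K6 was -1.21 ± 0.37 (SE, edgeR adjusted p = 0.0747), and DESeq2 called it lower (0.017). MAPK11 had the largest positive uncalled value (log2 fold change 0.43, adjusted p = 0.508). MAPKAPK2, the most abundant per length, was at 61.5 to 75.2 CPM in controls and 56.3 to 104 CPM in banded pigs (adjusted p = 0.528). SRF, serum response factor itself, named here after its values were seen, was at 61.1 to 78.1 CPM in controls and 33.4 to 58.0 CPM in banded pigs (log2 fold change -0.60 ± 0.19, SE, adjusted p = 0.0769). It was called lower by DESeq2 (0.0421), by limma-voom (0.0161), with library size alone (0.0372), with 1 surrogate variable (0.0316), without banded 3 (0.0479) and without banded 4 (0.041).

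Markers of other cell types were read beside the members, and their part in the results was not tested. Neutrophil markers, of which 5 of 6 matched, summed to 2.11 to 2.64 CPM in controls and 1.70 to 3.09 CPM in banded pigs, with MPO at 0 in all libraries. Macrophage markers (8 of 8 matched) summed to 451 to 712 and 698 to 1327 CPM, with the highest value in banded 2. Smooth muscle and pericyte markers (7 of 7 matched) summed to 966 to 1264 CPM in controls and 802 to 2346 CPM in banded pigs, and banded 3, highest for 4 members, held the 2346 CPM, of which CNN1 was 1348 CPM. The list did not move together in banded 3. CNN1 and TAGLN (460 CPM) were at their highest there, MYH11 (40.8 CPM) and RGS5 (216 CPM) were at their lowest, and the rest lay between. Red blood cell markers (5 of 6 matched) summed to 74.8 to 322 CPM in controls and 129 to 1789 CPM in banded pigs, highest in banded 4, which was also highest for FOS. Adipocyte markers (5 of 5 matched) summed to 341 to 466 CPM in controls and 294 to 788 CPM in banded pigs. LPL made up most of the sum in each library, at 326 to 452 CPM in controls and 290 to 540 CPM in banded pigs. The 788 CPM belonged to banded 1, lowest for 5 members, where ADIPOQ was at 199 CPM, against 2.60 to 23.5 CPM in the other libraries.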

How the data were processed

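Total RNA was sequenced in bulk from the right ventricle of 4 control and 4 banded pigs. The authors used featureCounts 1.6.2 to count read pairs, per the file headers (mapping quality of at least 10, strand setting 2, Ensembl release 106 of Sscrofa11.1), and the deposited counts are raw whole numbers. The submitters' processing notes also name DESeq2, HISAT2, Subread and Trimmomatic; their settings are not given in the sources used here. In the authors' deposited comparison each gene has a mean normalised signal, a log2 fold change with control over banded pigs, a Wald score and a p-value. Its direction was taken from its name and checked against the counts.

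Symbols came from a reference table and the deposited comparison, and 16216 of 31908 models received one. Genes were kept by filterByExpr (minimum count 10, minimum total 15), scaled by TMM and tested with the robust quasi-likelihood F test of edgeR 4.0.16 (R 4.3.3). P-values were two-sided and were adjusted by Benjamini and Hochberg over 13697 genes and a threshold of 0.05. The standard error is the size of the log2 fold change over the square root of F. Log2 CPM for spread and correlation used a prior count of 2. TPM was computed from the counts and the deposited model lengths. On simulated counts of 13489 genes, the test recovered 7.46% of 1.5-fold, 49.3% of 2-fold and 77.3% of 4-fold changes, with 10 false calls. The changed genes were drawn at random from all tested genes. The members varied more between animals than most genes did, so these rates need not hold for them. P-values weigh the difference between the groups against the spread between these animals.

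The members, the gene lists and the tests were chosen with earlier results of these data known. The text names all members, and of each list up to 4 called genes, the largest uncalled values in each direction and the most abundant gene per length, with exceptions stated. Of the list entries, JUND, BATF, BTG2 and ELK1 matched no symbol and are not reported. One further gene that the rule names is not reported here. Promoter sequences were not analysed here. Also run were limma-voom with quality weights (limma 3.58.1), DESeq2 1.42.0, other scalings and filters, no robust estimation, leaving out mitochondrial genes, 1 surrogate variable (sva 3.50.0) and leaving out each library. DESeq2 without each library was added after seeing the data.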

Additional observations from a re-analysis of the deposited data

Results flagged for a closer look

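In 3 of 18 groups of 4 animals (9 genes in controls and in banded pigs), 1 library lay far from the others by Dixon's criterion for 4 values. The criterion was applied to CPM, not to log2 CPM. Its chance rate of about 1 in 20 groups assumes normally distributed values, which was not tested. No excess over chance is therefore read from the 3 groups. FOSB was at 56.6 CPM in control 4, with the other controls at 1.33 to 2.78 CPM. EGR2 was at 38.8 CPM in banded 3, with the other banded pigs at 7.71 to 7.90 CPM. EGR3 was at 2.75 CPM in banded 3, with the other banded pigs at 0.313 to 0.474 CPM. The genes share these libraries, so the 3 groups are not independent of each other.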

How the results depend on the processing

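The count of 954 changed genes was 1629 with DESeq2 and 399 to 962 when 1 library was left out (399, 415 and 409 without control 1, 2 or 3). With DESeq2 on 7 libraries, chosen after seeing the data, it was 1585 of 15570 genes with an adjusted p without control 4. On the same basis it was 1504 of 16042, 1497 of 15587, 1534 of 15226 and 1675 of 15549 without banded 1 to 4. Without control 1, 2 or 3 it was 1135 of 15250, 1071 of 15193 and 1054 of 15528. The count of 0 called members was 1 with DESeq2 (NR4A1), 1 with 1 surrogate variable (EGR3) and 0 in each edgeR fit that left out 1 library. With DESeq2 on 7 libraries it was 1 without control 1 or 2 (NR4A1), 1 without banded 3 (EGR3), 2 without banded 1 (JUNB and EGR1), 2 without banded 4 (JUN and NR4A1) and 0 in the other 3 fits, with no p for NR4A1 without control 3. The sign of 4 members differed in some setting, with no call in either direction there: FOSB and ATF3 without control 4 (0.48 and 0.35 in edgeR, 0.49 and 0.35 in DESeq2), JUNB with limma-voom (-0.051), and EGR2 without banded 3 (-0.21 in edgeR and in DESeq2) and with 1 surrogate variable (-0.14). When 1 library was left out in edgeR, the log2 fold change ranged from -3.07 to 0.48 for FOSB, -2.36 to 0.35 for ATF3, -0.21 to 1.02 for EGR2, -2.12 to -0.49 for EGR3 and -3.09 to -1.46 for NR4A1. FOS, JUN, EGR1, EGR3 and NR4A1 kept their sign in all settings run. The cause of these differences was not tested. No paired analysis was possible because the labels give the groups no shared animal numbers. Depth limits FOSB and EGR3, which held as few as 8 and 11 counts in a library.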
